A study of Mus musculus with 8 samples.

Results

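The genes that make, cut and bind the matrix sugar hyaluronan, Has1, Has2, Has3, Hyal1, Hyal2, Cd44, Vcan and Hapln1, are 8 rows taken by name from a table of 29844 coding genes. The genes were chosen by role, with their read counts in these 8 libraries and their stiff-against-soft differences already known from earlier work on the data, so those values are given as a description. The cells were embryonic cardiomyocytes, prepared by digesting hearts of mouse embryos at E18.5. All embryos came from B6.Cg-Tg(HIST1H2BB/EGFP)1Pa/J mice, so both groups carried the same fluorescent histone H2B transgene. The cells were kept for 4 days, to confluence and peak beating, in Advanced DMEM with serum on silicone rubber (PDMS). It was soft (about 10 kPa) for 4 libraries and stiff (about 150 kPa) for 4 others, and the submitters refer to their publication for the exact stiffness. Library numbers 1 to 4 are the last digits of the library codes. The rest of the code is shared within each substrate and differs between the substrates. What it marks is not stated, so it cannot be told apart from substrate. The labels name no litter, culture or day for any library. P-values therefore measure only how far these libraries spread, and that spread may be technical.

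Hyaluronan is a long, unsulphated sugar chain that fills the space around cells. Hyaluronan synthases (Has1, Has2 and Has3) sit in the plasma membrane and push the growing chain out of the cell, and hyaluronidases such as Hyal2 at the cell surface and Hyal1 in the lysosome cut it down. Versican (Vcan) is a chondroitin sulphate proteoglycan that binds the chain, link protein (Hapln1) locks both together, and Cd44 is the main hyaluronan receptor of many cells. In the embryonic heart this matrix is known from the cardiac jelly and the endocardial cushions, and mice that lack Has2 fail to form cushions.

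Library totals ran from 27646471 to 34693673 counts. The 16 cardiomyocyte markers summed to 32174 ± 9651 CPM over the soft libraries and 32617 ± 4701 CPM over the stiff ones (SD, n = 4 each; CPM is the read count relative to the library's total as scaled by TMM), and all 16 were detected. The cultures also held RNA of other cells: the sum was 13228 ± 3795 CPM (soft) and 11414 ± 2324 CPM (stiff) for 16 fibroblast markers, and 148 ± 25.6 and 144 ± 28.3 CPM for 12 leukocyte markers. Of 8 marker lists, none passed the exact permutation test between substrates (two-sided), in which the lowest p was 0.429 and the lowest adjusted p 0.876; the smallest p that 4 against 4 libraries can give is 0.0286. By library number, the fibroblast sum was lower on stiff in 4 of 4 pairs and the cycling sum higher on stiff in 4 of 4. Each had a p of 0.125 (adjusted p = 0.5) by an exact two-sided sign-flip test, which cannot give a smaller p with 4 pairs. In these bulk libraries, fewer cells of a type and less RNA per cell cannot be told apart.

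None of the hyaluronan genes passed the test between substrates. Of 14059 coding genes tested with edgeR's quasi-likelihood test, 0 were called at an adjusted p under 0.05 (0% of those tested). An unadjusted p under 0.05 was found for 130 (0.925%), of which 62 (0.441%) were higher and 68 (0.484%) lower on stiff. With uniform p-values, 703 genes would be expected under that threshold. The unadjusted edgeR p-values thus ran higher than uniform ones, and the cause was not tested. DESeq2, run without the filter over 17351 genes, called 0, with 322 at an unadjusted p under 0.05. Limma-voom, over the same 14059 genes as edgeR, called 0, with 180. Cd44 was the 1 member among those 130, on the higher side, and no member was on the lower side. With the library number as a replicate block, 360 genes (2.56%) had an unadjusted p under 0.05 and 0 were called, and 2 members were among the 360, Cd44 and Has2. Of the 8 members, 6 had enough counts to be tested; Has1 and Has3 did not. Soft and stiff libraries overlapped for all 6, against 181 tested genes without overlap (1.29%), 76 of them higher (0.541%) and 105 lower (0.747%) on stiff. The large differences among these genes lay between libraries of the same substrate, for Has2, Vcan and Hapln1 most of all.

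**Figure D1:**
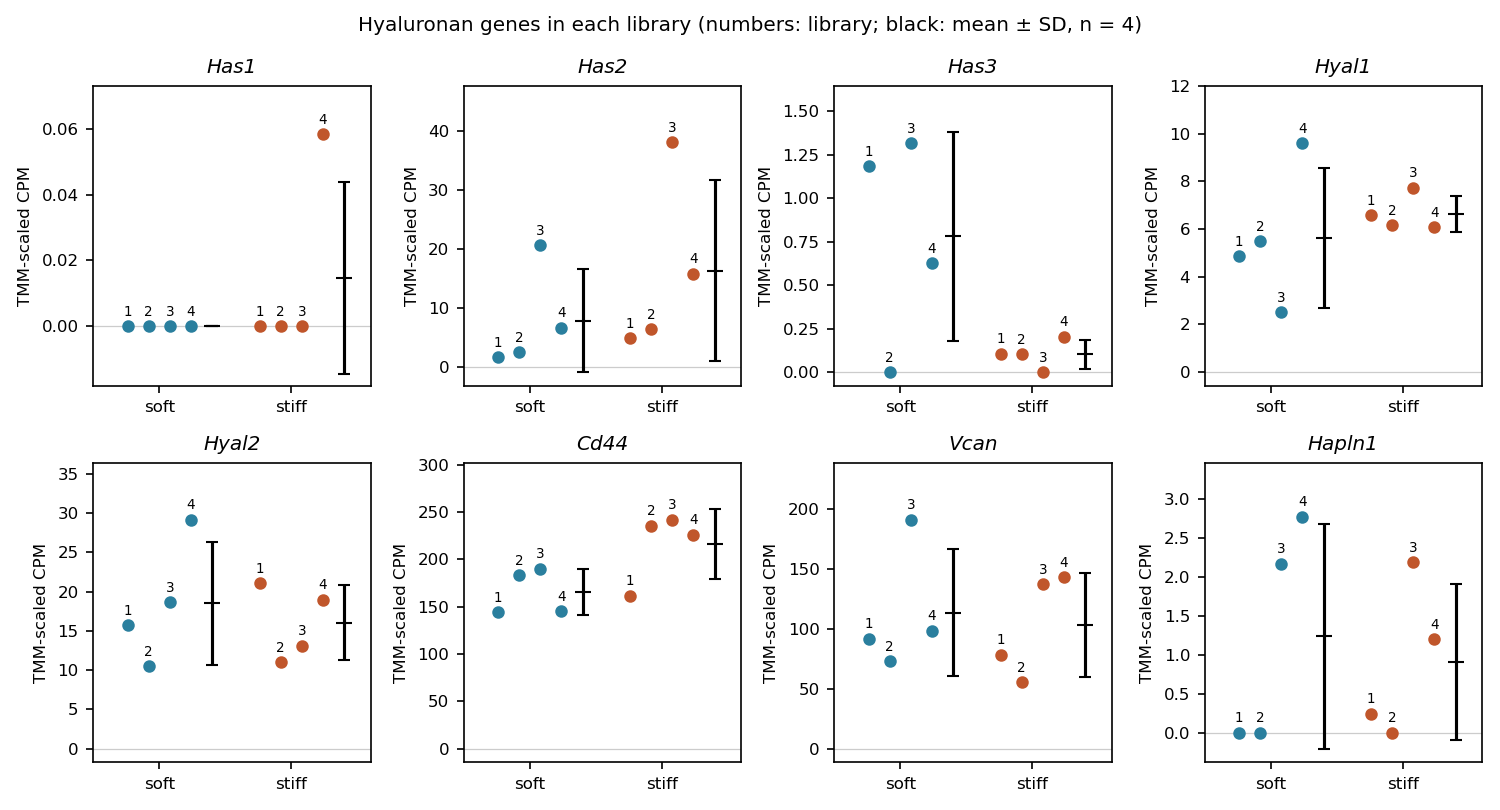
Level of each hyaluronan gene (vertical axis, TMM-scaled CPM) in each library, by substrate; dots are libraries with their number, and the black mark and bar are the mean and SD of 4 libraries. Has2 reached 20.6 CPM in soft 3 and 38.1 CPM in stiff 3, the highest library of each substrate, and the dots of the 2 substrates overlap in every tested gene.

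Has2, the synthase that makes most of the hyaluronan in the embryonic heart, was the synthase gene with enough counts to test. Has2 (ENSMUSG00000022367) lies on chromosome 15 from 56665627 to 56694546 (RefSeq, GRCm38.p6, as for all positions here). The antisense RNA gene Has2os overlaps it and was not analysed here, and without a stated strand setting reads of the pair cannot be told apart. On soft it stood at 1.61 CPM in library 1, 2.50 in library 2, 20.6 in library 3 and 6.60 in library 4. On stiff the same numbers stood at 4.79, 6.40, 38.1 and 15.8 CPM. Libraries 1 and 2 were thus the lowest and library 3 the highest on both substrates, and the substrates overlapped. The highest soft library held 12.8 times the lowest, and the highest stiff library 7.94 times the lowest. The SD of its log2 CPM within a substrate was 1.48, against a median of 0.41 over all tested genes, and it exceeded that of 99.0% of the 3669 tested genes within 2-fold of its mean level.

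Has2 averaged 7.84 ± 8.80 CPM over the soft and 16.3 ± 15.3 CPM over the stiff libraries (SD, n = 4 each). The log2 fold change was 1.06 (SE 0.88, 95% interval -0.92 to 3.04, edgeR adjusted p = 0.99997). The interval spans from 0.527-fold to 8.20-fold, so a fall and a several-fold rise both lie inside it. Without soft 3 the estimate was 2.19, and without stiff 3 it was 0.20.

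By library number, stiff was above soft in each of the 4 pairs for Has2, a pattern not counted over all tested genes. The ratio was 2.97 for number 1, 2.56 for number 2, 1.85 for number 3 and 2.39 for number 4. Fitted with the number as a replicate block, the log2 fold change was 1.26 and its SE fell to 0.32, with an unadjusted edgeR p of 0.000252 against 0.260 without the block. The gene was again not called (edgeR adjusted p = 0.887 over all genes). Over all tested genes, deviations from the substrate means correlated only weakly between libraries of equal number, at 0.104 to 0.305. Soft 2 correlated at 0.130 with stiff 1, above the 0.104 of soft 1 with stiff 1. The other pairs of unequal number ran from -0.228 to 0.112. Nothing in the labels says that a number marks a shared litter, culture or day.

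The other 2 synthase genes had few reads. Has1 (ENSMUSG00000003665, chromosome 17 from 17833691 to 17855589) had 2 reads in stiff 4 and 0 in the other 7 libraries, where a count of 0 allows at most 3 reads, or 0.0900 to 0.107 CPM; this covers counting error only. Its span overlaps those of the noncoding gene Gm36907 and of Spaca6 (15337 reads in all). Has3 (ENSMUSG00000031910, chromosome 8 from 106870242 to 106882902) had 36, 0, 37 and 19 reads in soft 1 to 4 and 3, 3, 0 and 7 reads in stiff 1 to 4. Soft 1, 3 and 4 thus stood above every stiff library, while soft 2 had none. Has3 was below the filter on low counts; without the filter its log2 fold change was -2.87 (SE 2.02, edgeR adjusted p = 0.99985), and a fold of so few reads depends on the prior count.

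The hyaluronidase genes lie next to each other on chromosome 9, Hyal2 (ENSMUSG00000010047) from 107567873 to 107572778 and Hyal1 (ENSMUSG00000010051) from 107576950 to 107581699, with 4.17 kb between them. Hyal2, a membrane-anchored enzyme that cuts long chains, stood at 15.7, 10.5, 18.6 and 29.1 CPM in soft 1 to 4 and at 21.0, 11.0, 13.1 and 19.0 CPM in stiff 1 to 4. Soft 4 was highest and library 2 lowest on each substrate, and the stiff values lay inside the soft range. Its log2 fold change was -0.21 (SE 0.33, edgeR adjusted p = 0.99997), and without soft 4 it turned to 0.11.

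Hyal1, the lysosomal enzyme that breaks down shorter chains, stood at 4.87, 5.49, 2.53 and 9.60 CPM in soft 1 to 4 and at 6.59, 6.16, 7.74 and 6.07 CPM in stiff 1 to 4. The stiff libraries lay close together and inside the soft range, which ran from its low in soft 3 to its high in soft 4. The log2 fold change was 0.24 (SE 0.45, edgeR adjusted p = 0.99997), and it went to 0.63 without soft 4 and to -0.00338 without soft 3. The annotated span of Hyal1 overlaps those of Naa80, listed at 0 in all libraries, and Hyal3, a related gene with 83 reads in all; whether strand was used in counting is not given in the sources used here. Both hyaluronidase genes were highest in soft 4, which also had the highest sum of cardiomyocyte markers, 46593 CPM, the rest of the soft group holding 26754 to 28584 CPM; their part in these values was not tested.

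Cd44 carries hyaluronan at the cell surface and links it to the cortical cytoskeleton; the gene (ENSMUSG00000005087) lies on chromosome 2 from 102811141 to 102901669. It stood at 144 CPM in soft 1, 183 in soft 2, 190 in soft 3 and 145 in soft 4. On stiff it stood at 161 CPM in library 1, 236 in library 2, 242 in library 3 and 226 in library 4. Stiff 2, 3 and 4 lay above every soft library, and stiff 1 lay inside the soft range. It averaged 166 ± 24.4 CPM over the soft and 216 ± 37.1 CPM over the stiff libraries (SD, n = 4 each).

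Cd44 had a log2 fold change of 0.38 (SE 0.18, 95% interval 0.00 to 0.77, or up to 1.70-fold), with an unadjusted edgeR p of 0.0483 and an adjusted p of 0.99997. The estimate stayed between 0.32 and 0.50 whichever library was left out, but the unadjusted p was under 0.05 in 3 of those 8 edgeR fits. It was 0.133 without soft 1, 0.0870 without soft 4, and 0.107, 0.123 and 0.0872 without stiff 2, 3 and 4, and limma-voom on all libraries gave 0.0502. By library number the ratio of stiff to soft was 1.12, 1.29, 1.27 and 1.56, and with the replicate block the log2 fold change was 0.38 (SE 0.15, edgeR unadjusted p = 0.0157, adjusted p = 1). Cd44 also varied less between libraries than Has2, with an SD of 0.24 in log2 CPM within a substrate. This exceeded the SD of 42.5% of the 2241 tested genes within 2-fold of its mean level, an ordinary spread for that level.

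Vcan and Hapln1 encode the proteoglycan and the link protein that join on the hyaluronan chain, and they are neighbours on chromosome 13: Hapln1 (ENSMUSG00000021613) runs from 89540529 to 89611832 and Vcan (ENSMUSG00000021614) from 89655309 to 89743027, 43.5 kb apart with 0 RefSeq genes between them. Vcan stood at 91.7, 73.2, 191 and 98.4 CPM in soft 1 to 4 and at 78.3, 55.6, 137 and 143 CPM in stiff 1 to 4. Soft 3, stiff 3 and stiff 4 were the highest libraries, and library 2 was the lowest on each substrate. It averaged 114 ± 52.7 CPM over the soft and 103 ± 43.2 CPM over the stiff libraries (SD, n = 4 each).

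The log2 fold change of Vcan was -0.13 (SE 0.34, 95% interval -0.88 to 0.61, edgeR adjusted p = 0.99997). It turned to 0.24 without soft 3 and to 0.08 without stiff 2. By library number, stiff was lower than soft for numbers 1, 2 and 3, with ratios of 0.854, 0.759 and 0.718, and higher for number 4, with 1.45. Within substrates its log2 CPM had an SD of 0.63, above that of 97.8% of the 3499 tested genes within 2-fold of its level.

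Hapln1 was present in some libraries and missing in others. It had 0 reads in soft 1 and soft 2, 61 in soft 3 and 84 in soft 4, and 7, 0, 73 and 41 reads in stiff 1 to 4. Libraries 3 and 4 of both substrates thus stood at 1.20 to 2.77 CPM, while a count of 0 in soft 1, soft 2 and stiff 2 allows at most 0.0988, 0.106 and 0.102 CPM. The edgeR log2 fold change was -0.44 (SE 1.68), and its interval from -4.00 to 3.13 spans both directions; it was 0.34 without soft 4 and 0.52 with the replicate block. The annotated span of Hapln1 holds the pseudogene Gm8546 (2068 reads in all), and that of Vcan overlaps Gm16318 and Gm4117. A fitted fold of a gene with several libraries at 0 depends on the prior count.

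The windows around the RefSeq start sites (GRCm38.p6, 250 bases before to 50 after, written 5′ to 3′ on the gene's strand) are shown for the neighbours Vcan and Hapln1, whose high and low libraries largely coincided, and for Cd44, the member with the lowest unadjusted p in the fit without the replicate block; with the block it was Has2, for which no window is shown. Capitals mark the letters GGGCGG (GC box) or CANNTG (E-box), read on both strands; none of the marked matches overlap. The Vcan window is chr13:89742463-89742762 on the minus strand, the Hapln1 window is chr13:89540386-89540685 on the plus strand and the Cd44 window is chr2:102901616-102901915 on the minus strand.
Vcan: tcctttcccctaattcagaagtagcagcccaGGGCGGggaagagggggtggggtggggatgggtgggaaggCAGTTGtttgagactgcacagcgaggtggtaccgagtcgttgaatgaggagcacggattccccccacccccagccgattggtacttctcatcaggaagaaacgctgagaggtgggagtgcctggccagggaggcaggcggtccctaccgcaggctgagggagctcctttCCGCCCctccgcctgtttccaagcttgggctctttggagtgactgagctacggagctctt
Hapln1: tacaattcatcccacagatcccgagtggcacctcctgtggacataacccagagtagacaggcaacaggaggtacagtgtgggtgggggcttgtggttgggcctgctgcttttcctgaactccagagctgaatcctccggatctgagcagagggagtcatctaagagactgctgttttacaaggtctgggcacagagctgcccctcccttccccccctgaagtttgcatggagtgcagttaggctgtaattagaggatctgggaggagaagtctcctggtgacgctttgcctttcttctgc
Cd44: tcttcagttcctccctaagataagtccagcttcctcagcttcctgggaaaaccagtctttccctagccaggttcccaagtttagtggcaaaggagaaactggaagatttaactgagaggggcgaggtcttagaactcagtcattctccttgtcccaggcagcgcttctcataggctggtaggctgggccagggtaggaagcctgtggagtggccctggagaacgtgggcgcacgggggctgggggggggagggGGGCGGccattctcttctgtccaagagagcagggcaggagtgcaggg
The Vcan window holds 2 GC boxes and 1 E-box, the Cd44 window 1 GC box, and the Hapln1 window none of these letters. GGGCGG occurs in 35.7% and CANNTG in 72.3% of the 32851 windows of this length. A search for TATAAA, the TATA box, found it in none of the 3 windows and in 13.6% of all. The core that TEAD factors bind, GGAATG, was in none of the 3 and in 14.7% of all windows. The Hyal2 window, not shown, holds 1 match to it, at position -229 on the minus strand. The AP-1 letters TGANTCA were in none of the 3 and in 7.81% of all windows. GC content was 61.0% for Vcan, 54.3% for Hapln1 and 58.0% for Cd44, against a median of 52.7% over all windows. A match is a description of the letters in this window, and no match says nothing about a factor.

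**Figure D2:**
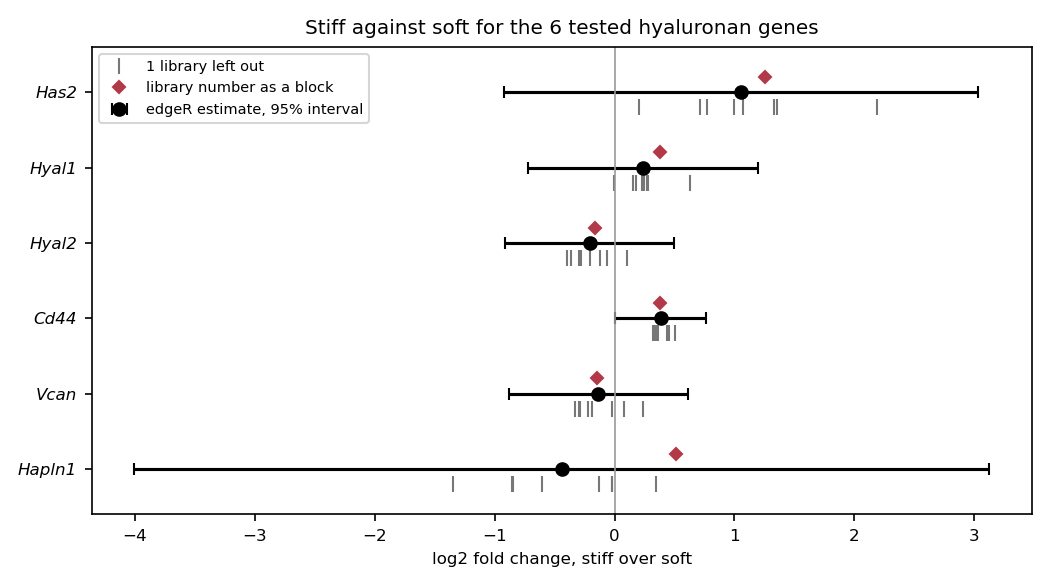
Log2 fold change of stiff over soft (horizontal axis) for the 6 tested hyaluronan genes: black dots and bars are the edgeR estimate and its 95% interval, grey ticks the estimates with 1 library left out, and red diamonds the estimates with the library number as a replicate block. The grey ticks of Has2 run from 0.20 to 2.19 and those of Cd44 from 0.32 to 0.50; those of Vcan, Hapln1, Hyal1 and Hyal2 lie on both sides of 0.

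Has2, Vcan and Hapln1 had their highest values in libraries numbered 3 or 4 on both substrates. The sums of fibroblast and cell cycle markers also ran high there. The 8 cycling markers summed to 544, 615, 968 and 914 CPM in soft 1 to 4 and to 550, 634, 1035 and 1079 CPM in stiff 1 to 4. The 16 fibroblast markers summed to 9534, 10393, 16150 and 16833 CPM in soft 1 to 4 and to 8839, 10105, 13756 and 12954 CPM in stiff 1 to 4. Both sums were higher in libraries 3 and 4 than in libraries 1 and 2 on each substrate. Their part in the spread of the hyaluronan genes was not tested. Single fibroblast markers did not all follow the sum. Col1a2, the largest of them, stood at 3603, 3852, 5951 and 5777 CPM in soft 1 to 4. On stiff it stood at 3210, 3645, 5047 and 4170 CPM. Pdgfra ran the other way, at 290, 276, 144 and 211 CPM in soft 1 to 4. On stiff Pdgfra stood at 303, 276, 151 and 252 CPM.

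Other marker lists were arranged differently. The 12 leukocyte markers summed to 186, 140, 135 and 131 CPM in soft 1 to 4 and to 167, 171, 121 and 119 CPM in stiff 1 to 4. That sum was lower in libraries 3 and 4 than in libraries 1 and 2 on each substrate. Lyz2 alone made up most of it, at 145, 80.8, 83.7 and 73.3 CPM in soft 1 to 4. On stiff, Lyz2 stood at 115, 108, 86.5 and 72.8 CPM. The order of the libraries in this sum thus largely reflects 1 gene, and the other leukocyte markers were not summed without it. The 11 mural markers (smooth muscle and pericytes) ran from 2629 to 4155 CPM on soft and from 2428 to 3599 CPM on stiff, with library 3 highest on each. The 12 endothelial markers ran from 229 to 342 CPM and from 267 to 406 CPM, with library 3 lowest and library 1 highest on each; Cldn5 of this list had 0 reads in every library. The 10 epicardial markers ran from 899.8 to 1319 CPM on soft and from 879 to 1076 CPM on stiff. The 9 cushion and valve markers ran from 642 to 1014 CPM and from 736 to 1499 CPM with library 3 lowest on each; Tbx20, which cardiomyocytes also express, made up most of that sum (766 CPM on average), and Sox9 stood at 4.52 CPM on average.

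**Figure D3:**
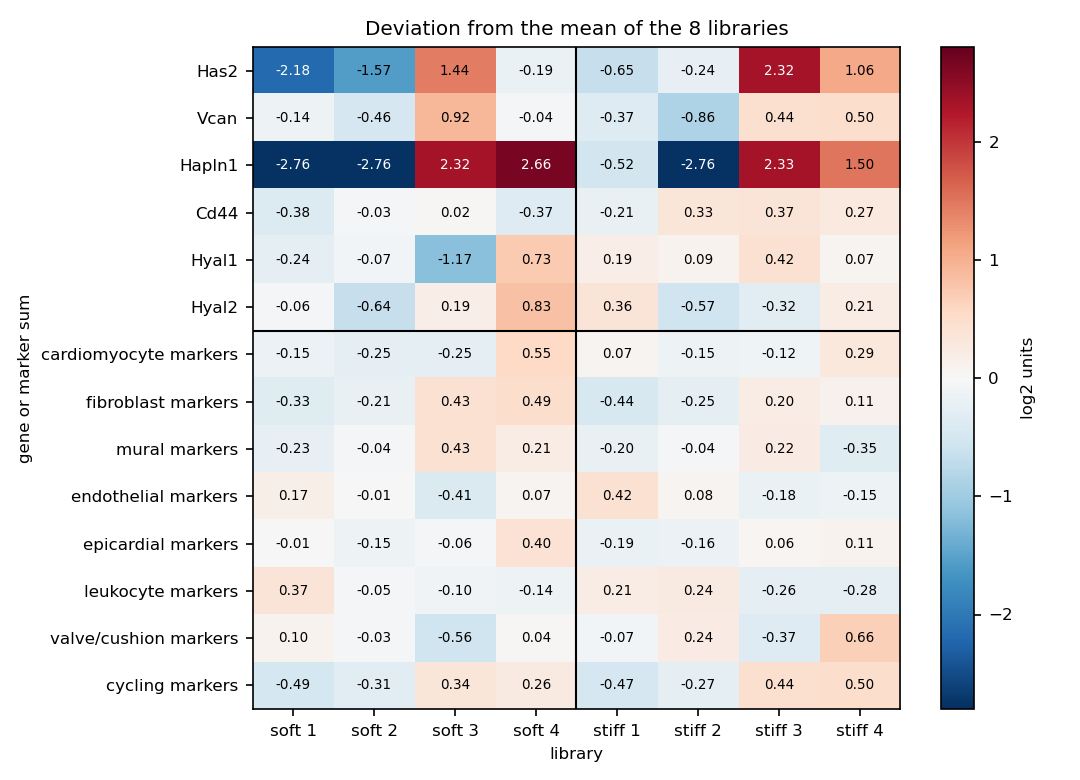
Deviation of each library (columns) from the mean of the 8 libraries, in log2 units, for the 6 tested hyaluronan genes and for the sums of 8 marker lists (rows); red is above and blue below the mean, and the vertical line separates soft from stiff. Has2 and Hapln1 are at 1.44 and 2.32 in soft 3 and at 2.32 and 2.33 in stiff 3, and the fibroblast and cycling sums are above 0 in libraries 3 and 4 of both substrates.

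The genes whose levels followed the members most closely over the 8 libraries were sought among tested genes with a mean of at least 10 CPM. Since they are the extremes of about 9850 candidates, their correlations are descriptions with no test. For Has2 they were Slc41a2 (a magnesium transporter gene, r = 0.93, rho = 0.93), Rab23 (a small GTPase gene of hedgehog signalling, r = 0.93, rho = 1.00) and Fancd2 (DNA crosslink repair, r = 0.93, rho = 0.95). For Vcan they were Ano4 (an anoctamin gene, r = 0.98, rho = 0.98), Esco2 (sister chromatid cohesion, r = 0.95, rho = 0.98) and Sppl3 (a membrane protease gene, r = 0.94, rho = 0.90). For Hapln1 they were Mrpl49, a mitochondrial ribosomal protein gene, Incenp, of the chromosomal passenger complex, and Xpnpep1, an aminopeptidase gene, with r of 0.99, 0.97 and 0.97 and rho of 0.95, 0.95 and 0.98.

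For Cd44 the closest were Usp37 (a deubiquitinase gene, r = 0.94, rho = 0.95), Ssbp1 (a mitochondrial DNA binding protein gene, r = 0.92, rho = 0.90) and Kcnn2 (a calcium-activated potassium channel gene, r = 0.91, rho = 0.98). For Hyal2 they were Agpat3 (a phospholipid synthesis gene, r = 0.99, rho = 1.00), Vac14 (endosomal phosphoinositide synthesis, r = 0.96, rho = 0.93) and Abcb8 (a mitochondrial transporter gene, r = 0.95, rho = 0.88). For Hyal1 they were Slc9a3r1 (a scaffold protein gene that binds ezrin, r = 0.95, rho = 0.88), Brpf3 (a scaffold gene of histone acetyltransferases, r = 0.94, rho = 0.98) and Mtmr14 (a phosphoinositide phosphatase gene, r = 0.94, rho = 0.81). Between members, over the same 8 libraries and again as a description, r was 0.80 for Has2 and Hapln1, 0.79 for Vcan and Hapln1, 0.70 for Has2 and Vcan, 0.67 for Has2 and Cd44, and 0.18 for the neighbours Hyal1 and Hyal2, with rho of 0.78, 0.71, 0.71, 0.69 and 0.36.

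Other genes of hyaluronan and versican biology, in 9 lists from textbook roles, did not pass the test either. Of 94 genes 79 were tested, 35 with a higher and 44 with a lower estimate on stiff, and 0 were called by edgeR adjusted over all genes, 0 had an unadjusted p under 0.05 and 0 had substrates that did not overlap. Their median log2 fold change was -0.03, against -0.01 over all tested genes, of which 51.9% had a lower estimate on stiff.

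Genes that make the sugar precursors were well expressed on both substrates. All 8 were tested, 6 with a higher and 2 with a lower estimate on stiff (median log2 fold change 0.09). Ugdh, which makes UDP-glucuronic acid, averaged 183 ± 36.2 and 198 ± 43.3 CPM over the soft and the stiff libraries, and Ugp2, which makes UDP-glucose, at 259 ± 49.4 and 274 ± 41.0 CPM (SD, n = 4 each).

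Of 10 other degradation genes, 5 were tested (1 higher, 4 lower, median -0.06), and Hyal4, Hyal5, Hyal6 and the sperm hyaluronidase gene Spam1 had 0 reads. Cemip, which binds hyaluronan and promotes its breakdown, stood at 1705, 1311, 755 and 641 CPM in soft 1 to 4 and at 1304, 1149, 745 and 805 CPM in stiff 1 to 4. Its levels were higher in libraries 1 and 2 than in libraries 3 and 4 on each substrate, the reverse of Has2, and its log2 fold change was -0.14 (SE 0.29). Hexa, a lysosomal hexosaminidase gene, averaged 149 ± 4.82 (soft) and 142 ± 29.0 CPM (stiff) (SD, n = 4 each).

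All 8 other receptor genes were tested (5 higher, 3 lower, median 0.10). Hmmr, a hyaluronan binding protein of the mitotic spindle, stood at 66.1, 88.3, 121 and 71.4 CPM in soft 1 to 4 and at 66.8, 87.1, 104 and 117 CPM in stiff 1 to 4. Tlr4, an innate immune receptor that hyaluronan fragments can engage, averaged 115 ± 44.9 (soft) and 130 ± 48.9 CPM (stiff) (SD, n = 4 each). Of 17 other binding proteins 10 were tested (6 higher, 4 lower, median 0.09), with Habp4 at 45.6 ± 7.32 and 44.8 ± 7.03 CPM and C1qbp at 42.3 ± 11.1 and 44.8 ± 9.09 CPM on soft and stiff.

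Genes around versican included its proteases, its partners and the enzymes that build its chondroitin sulphate chains. Of the 7 protease genes 3 had higher and 4 lower estimates (median -0.05). Adamts1 stood at 443, 363, 260 and 186 CPM in soft 1 to 4 and at 363, 429, 390 and 151 CPM in stiff 1 to 4, with library 4 lowest on each substrate. Adamts5 averaged 151 ± 69.2 (soft) and 157 ± 34.1 CPM (stiff) (SD, n = 4 each). Of the 7 partner genes 4 had higher and 3 lower estimates (median 0.02), with Fbln2 at a log2 fold change of -0.24 (SE 0.21) and Fn1 at -0.06 (SE 0.17).

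The chondroitin sulphate list was the most one-sided of the 9, with 16 of 19 tested genes at lower estimates on stiff and a median of -0.15; 0 of them were called. Chsy1, a chain polymerase gene, averaged 131 ± 4.81 (soft) and 128 ± 22.1 CPM (stiff), and Dse, which turns glucuronic into iduronic acid, at 134 ± 15.2 and 141 ± 12.7 CPM (SD, n = 4 each). Inside the cell, of 9 partners of the Cd44 tail 4 had higher and 5 lower estimates (median -0.01), with moesin (Msn) at 548 ± 16.6 and 544 ± 79.6 CPM and Iqgap1 at 598 ± 27.9 and 569 ± 45.5 CPM. Of 6 tested genes of Cd44 splicing and shedding 3 had higher and 3 lower estimates (median 0.00), with Adam10, a Cd44 sheddase gene, at 243 ± 9.40 (soft) and 284 ± 35.8 CPM (stiff) and Khdrbs1, a splicing regulator gene, at 181 ± 19.5 and 180 ± 23.2 CPM.

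**Figure D4:**
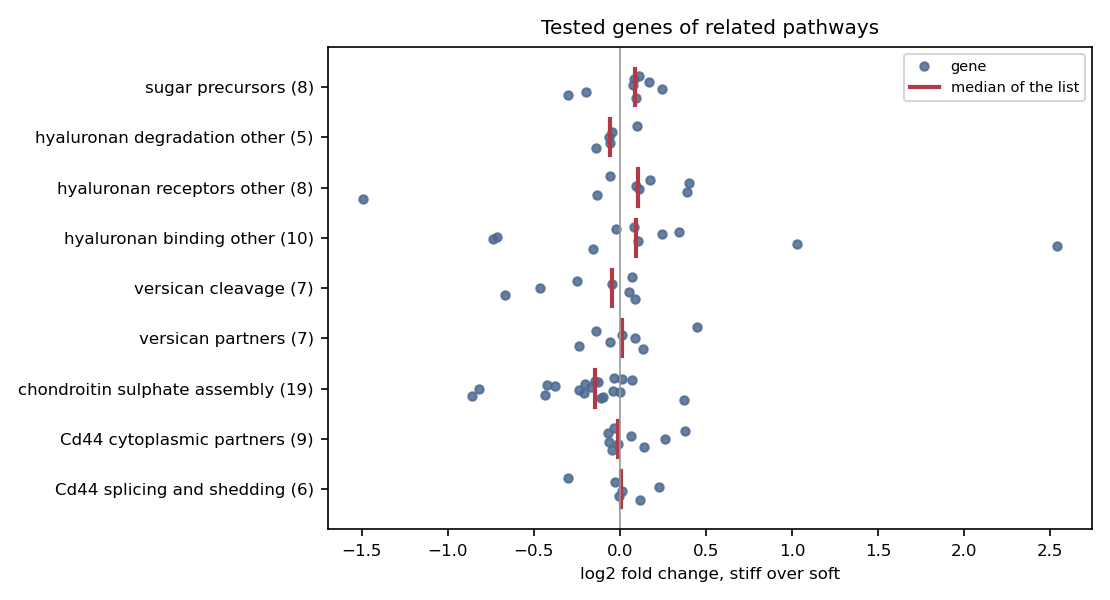
Log2 fold change of stiff over soft (horizontal axis) for the 79 tested genes of 9 lists around hyaluronan and versican (rows, number of tested genes in brackets); dots are genes and red bars the medians. The medians lie between -0.15 for chondroitin sulphate assembly and 0.10 for other receptors, and the 2 dots farthest from 0, at -1.49 and 2.54, are Lyve1 and Hapln3, with means of 1.39 and 0.538 CPM.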

How the data were processed

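RNA of 8 libraries was measured by sequencing. The authors deposited raw read counts per Ensembl gene; the submitters' processing notes name HTSeq 0.6.1, TopHat2 2.0.14, Bowtie2 and build GRCm38 among others, with no role or order. The strand setting is not given in the sources used here. A second table, of noncoding genes, was not used. Symbols, positions and promoter windows came from RefSeq (GRCm38.p6), and 6 of the 8 members had a window.

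The tools were edgeR 4.0.16, DESeq2 1.42.0 and limma 3.58.1 under R 4.3.3. Genes passing filterByExpr (minimum count 10, minimum total 15) were scaled by TMM. The substrates were tested by edgeR's robust quasi-likelihood test, with Benjamini-Hochberg adjustment over 14059 genes and a threshold of 0.05. Levels are TMM-scaled CPM; log2 CPM used a prior count of 2. Transcript lengths were not used, so levels of different genes are not compared. Floors use 3 reads. Members and lists were chosen with earlier results of these data known. Beside the members, the text names genes overlapping a member and the 3 genes most alike each member. From each list it names genes with an unadjusted edgeR p under 0.05 and the 2 with the highest mean. Cemip, Hmmr and Adamts1 are given by library. Lyve1, Hapln3, Cldn5, Tbx20, Sox9, Col1a2, Pdgfra, Lyz2 and the genes at 0 were named after their values were seen.

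Library numbers were checked for pairing: over all tested genes, deviations from the substrate mean correlated between equal numbers at 0.104, 0.181, 0.128 and 0.305 for 1 to 4. Soft 1 correlated at 0.112 with stiff 2, and soft 2 at 0.130 with stiff 1. The other pairs of unequal number ran from -0.228 to 0.0584. The pairing thus comes from the data and the last digit of the library code, not from a stated litter or day. Alternatives were other scalings and filters, DESeq2, limma-voom, each library left out, and the number as a replicate block. The fit was tested on simulated data.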

Additional observations from a re-analysis of the deposited data

Results flagged for a closer look

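The sum of cardiomyocyte markers in soft 4, 46593 CPM, lay far above the other soft libraries. The sum of leukocyte markers in soft 1, 186 CPM, lay far above the other soft libraries. Most of that sum was Lyz2, at 145 CPM in soft 1 against 80.8, 83.7 and 73.3 CPM in soft 2 to 4. The flag therefore does not show that leukocyte markers as a set were higher in soft 1. The 2 Has1 reads of stiff 4, 0.0584 CPM, stood apart because the other stiff libraries had 0. Both sums and the Has1 value were found by Dixon's test in groups of 4, which flags about 1 group in 20 by chance. The test was run on the members, marker sums and library totals of each substrate, so some flags are expected by chance. That rate does not hold for Has1, since any read in 1 library of a group otherwise at 0 would be flagged.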

How the results depend on the processing

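None of the 6 tested members was called under any alternative. The number of coding genes called was 0 under every alternative except limma-voom with the replicate block, added after seeing the data, which called 5, none of them a member; with each library left out it was 0 to 0. With the replicate block in edgeR it was 0, and the block, with the sign-flip test of marker sums added after seeing the data, changed no call; at an unadjusted p under 0.05 the count went from 130 to 360. DESeq2 with the block, also added, gave Has2 a log2 fold change of 1.27 and an adjusted p of 0.268. Limma-voom with the block gave Has2 a log2 fold change of 1.07 and an adjusted p of 0.9999. The direction of Hapln1 turned with limma-voom (0.81), with the replicate block (0.52) and with DESeq2 and the block (0.54). With 1 library left out, the log2 fold change ran from 0.20 to 2.19 for Has2, from -0.00338 to 0.63 for Hyal1, from -0.40 to 0.11 for Hyal2, from 0.32 to 0.50 for Cd44, from -0.33 to 0.24 for Vcan and from -1.35 to 0.34 for Hapln1. The number of genes without overlap was 181 and rose to 357 to 541 with 1 library fewer, since fewer samples overlap less often. The log2 ratio of marker sums, stiff over soft, ran from -0.0763 to 0.253 for cardiomyocytes, from -0.0505 to 0.165 for endothelium, from -0.165 to 0.0326 for epicardium, from -0.125 to 0.0945 for leukocytes and from -0.0399 to 0.269 for cycling cells. The cause of these turns was not tested. The labels name no molecular identifiers, and for Has1, Has3 and Hapln1 the low counts limit what could be detected.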
